A study of Gallus gallus with 6 samples.

Results

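Trunk neural tube progenitors were taken from single-cell RNA-sequencing libraries of chicken somite tissue as cell barcodes with CKB at 1 UMI or more, 1 UMI or more in at least 1 of PAX6, HES5 and FAM181A, and 0 UMIs in each of the neuronal genes ELAVL4, STMN2, NEFM and NHLH1 and the neural crest gene SOX10. A UMI (unique molecular identifier) marks 1 captured transcript molecule, so that amplification copies count once. The rule held for 935 of the 8262 somite barcodes, and the series holds 17268 barcodes in all. The members numbered 349 of 3193 barcodes at Hamburger-Hamilton stage HH12 (10.9%, exact 95% binomial interval 9.87 to 12.1), 422 of 3191 at HH15 (13.2%, 12.1 to 14.4) and 164 of 1878 at HH20 (8.73%, 7.49 to 10.1). These intervals cover counting error only.

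The study profiled the dorsal part of the brachial trunk at HH12, HH15 and HH20, labelled somite, and the frontonasal prominence at HH15, HH18 and HH22, labelled nasal, in untreated chicken embryos of the Hubbard stock. Cells of several embryos of both sexes were pooled, dissociated with trypsin and loaded on the 10x Chromium system, with 1 library for each stage. The 3 somite libraries held 7779317 to 12127588 UMIs. Stages of a location therefore served as its replicates. Within the somite libraries, p-values measured how far the difference between 2 sets of a library varied over stages, together with any technical spread. Between locations they measured the spread between stages itself. edgeR shares its estimate of spread between genes, so a very small p-value does not rest on the 3 libraries of that gene alone.

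The neural tube is a pseudostratified epithelium whose dividing progenitors line the central canal, while newborn neurons leave it towards the outside. SOXB1 factors and Notch signalling through HES genes keep cells in the progenitor state. Opposing signals, Sonic hedgehog from the floor plate and BMP and WNT ligands from the roof plate, set bands of homeobox and basic helix-loop-helix factors along the dorsoventral axis, and the HOX code gives each level of the trunk its position. PAX6 marks broad intermediate bands of progenitors, HES5 is a Notch target, CKB is the brain-type creatine kinase, and FAM181A is known from the neural tube of the mouse.

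Among the members, 586 (62.7%) had PAX6, 390 (41.7%) had HES5 and 351 (37.5%) had FAM181A. PAX6 alone brought in 310 barcodes (33.2%), HES5 alone 171 (18.3%) and FAM181A alone 128 (13.7%), while 66 (7.06%) had all 3. At least 2 of the 3 genes were detected in 326 members (34.9%). The levels of the rule genes are a description of the choice and were not tested. PAX6 stood at 349, 281 and 220 CPM (UMIs of the gene for each 1000000 UMIs of the set) in the summed members of HH12, HH15 and HH20, against 16.8, 11 and 16.3 CPM in all other barcodes of the same libraries. HES5 stood at 121, 258 and 260 CPM in members, against 5.57, 10.1 and 21.5 CPM in the others. FAM181A stood at 107, 171 and 118 CPM in members, against 6.04, 4.45 and 7.26 CPM in the others.

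The detection rule follows depth. Members had a median of 3848, 2598.5 and 2967.5 UMIs at HH12, HH15 and HH20, against 2831.5, 2163 and 2927 in the other barcodes. With every barcode thinned to 1500 UMIs, which left out shallower barcodes at HH15 only and kept 2630 there, the rule took 6.33%, 10.2% and 6.92% of barcodes, so that HH15 kept the highest share and the order of HH12 and HH20 was not kept. At the edge of the rule, 55, 38 and 11 members had CKB at exactly 1 UMI, and SOX2, which the rule did not use, stood at 44.4, 40.0 and 21.4 CPM in them. The 81, 45 and 11 barcodes left out only because CKB was at 0 had SOX2 at 34.5, 44.0 and 0 CPM. The 820, 958 and 513 barcodes left out only because PAX6, HES5 and FAM181A were all at 0 had SOX2 at 5.11, 12.9 and 9.27 CPM, and the 49, 34 and 78 left out by a single UMI of a neuronal gene had it at 51.5, 98.3 and 55.6 CPM.

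The label was checked against markers. Neural progenitor markers that the rule did not use summed to 795, 1711 and 3433 CPM in members at HH12, HH15 and HH20, against 645, 652 and 929 CPM in the other barcodes. Without FABP7 as well, these markers summed to 224, 189 and 493 CPM in members, against 187, 102 and 130 CPM in the others, so that the gap was narrow at HH12 and wide at HH20. Sclerotome markers summed to 56.6, 29.0 and 30.7 CPM in members, against 563, 178 and 127 CPM in the others. Dermomyotome markers summed to 63.7, 61.1 and 42.1 CPM in members, against 471, 168 and 116 CPM in the others. Surface ectoderm markers were not at 0 in members at the earlier stages: they summed to 211, 106 and 16.2 CPM, against 444, 298 and 28.6 CPM in the others, with 4, 4 and 2 of the 4 genes detected. Neural crest markers summed to 11.7, 13.0 and 25.9 CPM in members, against 31.9, 107 and 114 CPM in the others. This list includes SOX10, which the rule held at 0 UMIs in members, so part of the neural crest gap was fixed by the choice. The sclerotome, dermomyotome and neural crest sums were thus lower in members than in the others at every stage, while surface ectoderm transcripts remained at HH12 and HH15, and their part in the results was not tested.

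Globin transcripts, which belong to red blood cells, entered the members too. The alpha-globin gene HBA1 was detected in 0.860%, 58.8% and 98.2% of members at HH12, HH15 and HH20, and in 0.665%, 50.6% and 98.8% of mesodermal barcodes, which were defined by PRRX1 or MEOX1 without CKB and should lack it. A small number of members carried far more: 1 of 422 at HH15 and 5 of 164 at HH20 had 10% or more of their UMIs in globin genes (28.1% at HH15 and 22.8% to 26.5% at HH20). These 5 HH20 barcodes held 12291 to 23225 UMIs each, 13.5% of all member UMIs and 89.9% of the globin UMIs of that stage, and the other HH20 members had at most 0.838% globin. Filters on depth and a doublet score, applied as an alternative, kept 3 of the 5. Values without globin-rich barcodes are therefore given beside some of the stage results. Between 2 and 22 barcode sequences were shared by any pair of libraries (0.141% to 0.799% of the smaller one).

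Against all other barcodes of the same library, the members were higher in the SOXB1 factors SOX2 and SOX1, in WNT4 and in posterior HOX genes. They were also higher in dorsoventral patterning factors of the intermediate and ventral neural tube, and lower in mesodermal genes. In a fit that kept the library as a block, edgeR's quasi-likelihood test called 2455 of 9038 genes (27.2%) at an adjusted p under 0.05, of which 1113 (12.3%) were higher and 1342 (14.8%) lower in members. With DESeq2's size factors in place of TMM in the same test, 1500 genes were higher and 1076 lower, and the median log2 fold change of all genes moved from -0.11 towards 0 by 0.09. Because the members were gated on neural genes, these calls describe what goes with the gate. The count depended on single libraries: it was 1211 without HH12, 1095 without HH15 and 3198 without HH20.

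SOX2, which maintains neural progenitors, stood at 43.6, 61.1 and 112 CPM in members at HH12, HH15 and HH20, against 6.99, 14.6 and 14.9 CPM in the others. Every member value lay above every value of the others, and the log2 fold change was 2.51 ± 0.18 (SE, adjusted p = 6.94e-07, edgeR's quasi-likelihood test). SOX2 was detected in 16.3%, 14.2% and 29.9% of members (7.92%, 10.1% and 17.7% after thinning to 1500 UMIs), against 0.665%, 0.429% and 0.578% of mesodermal barcodes, whose median depth was 2713, 2286.5 and 2749 UMIs. SOX1, the related factor, was at 11.7, 7.64 and 9.71 CPM in members, against 1.13, 0.864 and 1.40 CPM in the others (log2 fold change 3.13 ± 0.44, adjusted p = 0.000168, edgeR's quasi-likelihood test), and was detected in no mesodermal barcode. The wider list of SOX progenitor genes did not rise as a group. Of 5 tested, 2 rose and 1 fell, with a median of -0.12 against -0.11 over all genes.

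FABP7, a fatty acid binding protein of radial glia, was at 570, 1523 and 2940 CPM in members, against 459, 550 and 799 CPM in the others. The gap was narrow at HH12 and wide at HH20, and the log2 fold change over the libraries was 1.23 ± 0.17 (adjusted p = 0.000174, edgeR's quasi-likelihood test). It was detected in 72.8%, 91.0% and 92.1% of members (48.0%, 79.8% and 88.5% thinned), and also in 35.6%, 36.3% and 41.6% of mesodermal barcodes (19.2%, 22.9% and 29.8% thinned), so that detection of FABP7 alone did not separate the members. VIM, the intermediate filament vimentin, stood at 912, 1119 and 1247 CPM in members, against 438, 588 and 769 CPM in the others (0.89 ± 0.11, adjusted p = 7.42e-05, edgeR's quasi-likelihood test). PTPRZ1, a receptor phosphatase of radial glia, was at 14.3, 26.0 and 30.7 CPM in members, against 1.98, 4.32 and 6.70 CPM in the others (2.51 ± 0.29, adjusted p = 3.47e-05, edgeR). Of 11 radial glia genes tested, 4 rose and 1 fell, and their median log2 fold change of -0.36 lay below that of all genes.

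Of the intermediate progenitor factors, 4 of 6 tested rose and 0 fell, with a median log2 fold change of 1.64 against -0.11 over all genes. DBX1, a homeobox factor of the progenitors at the dorsoventral midpoint, had the largest change of these. It was at 44.2, 117 and 76.0 CPM in members at HH12, HH15 and HH20, against 2.83, 4.57 and 14.4 CPM in the others (3.63 ± 0.33, adjusted p = 5.79e-06, edgeR's quasi-likelihood test). DBX1 was detected in 11.7%, 14.0% and 14.0% of members (5.94%, 8.24% and 8.46% thinned) and in 0.190%, 0.215% and 1.16% of mesodermal barcodes. Its paralogue DBX2 was steadier, at 76.7, 70.2 and 64.7 CPM in members, against 9.16, 8.40 and 13.0 CPM in the others (2.86 ± 0.21, adjusted p = 6.94e-07, edgeR). IRX3 was at 18.9, 13.0 and 37.2 CPM in members, against 8.31, 10.9 and 10.2 CPM in the others (1.11 ± 0.28, adjusted p = 0.00995, edgeR), the smallest gap lying at HH15. SP8, a zinc finger factor, stood at 20.2, 19.1 and 17.8 CPM in members, against 4.63, 3.95 and 4.89 CPM in the others (2.12 ± 0.28).

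All 5 ventral progenitor factors tested rose, with a median log2 fold change of 1.71. NKX6-1, which spans the ventral progenitor domains, was at 22.8, 16.8 and 42.1 CPM in members, against 6.23, 5.31 and 13.5 CPM in the others (1.71 ± 0.24, adjusted p = 0.000176, edgeR's quasi-likelihood test). Its paralogue NKX6-2 stood at 26.7, 16.0 and 19.4 CPM in members, against 4.25, 4.32 and 6.98 CPM in the others (2.10 ± 0.31). OLIG2, the factor of motor neuron progenitors, was at 16.3, 9.93 and 21.0 CPM in members, against 3.68, 2.96 and 8.66 CPM in the others (1.73 ± 0.32, adjusted p = 0.0014, edgeR). The members therefore held transcripts of ventral as well as dorsal domains of the neural tube. The study's dissection took the dorsal part of the brachial trunk, which does not name a part of the neural tube. NKX2-2, from the most ventral progenitors, rested on 7, 10 and 6 UMIs in members, and its call at a log2 fold change of 1.56 was lost without HH12 (1.38) or without HH15 (1.92).

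Dorsal and roof plate genes were less marked. PAX7, the paired box factor of dorsal progenitors, was at 43.6, 43.5 and 43.7 CPM in members, against 24.7, 21.9 and 19.4 CPM in the others (0.98 ± 0.17, adjusted p = 0.000674, edgeR's quasi-likelihood test). PAX7 is also a dermomyotome factor, and it was detected in 12.6%, 10.7% and 14.0% of members beside 6.74%, 4.94% and 7.51% of mesodermal barcodes. MSX1 had a log2 fold change of 0.60 and did not pass (adjusted p = 0.0841, edgeR). Of 9 roof plate genes tested, 0 rose and 4 fell, with a median of -0.04. WNT1, a roof plate ligand, was at 11.1, 6.11 and 3.24 CPM in members, against 10.2, 5.80 and 3.07 CPM in the others, and the values did not differ beyond the spread (0.16, adjusted p = 0.762, edgeR). PAX3 and OLIG3 were not analysed here.

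Among WNT pathway genes, 5 of 12 tested rose and 1 fell, with a median of 0.66. The ligand WNT4 was at 196, 106 and 95.5 CPM in members, against 24.8, 19.3 and 15.8 CPM in the others (2.73 ± 0.15, adjusted p = 1.04e-07, edgeR's quasi-likelihood test). It was detected in 40.7%, 18.7% and 20.1% of members (18.3%, 13.5% and 18.5% thinned), against 0.570%, 0.429% and 0% of the mesodermal barcodes. The receptor FZD10 had 72.2, 38.2 and 48.5 CPM in members, against 25.1, 25.7 and 15.6 CPM in the others (1.25), and SFRP2, a secreted WNT modulator, had 107, 83.2 and 76.0 CPM in members, against 39.7, 35.6 and 29.0 CPM in the others (1.37). LEF1, a nuclear effector of the pathway, fell (-1.0).

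**Figure D1:**
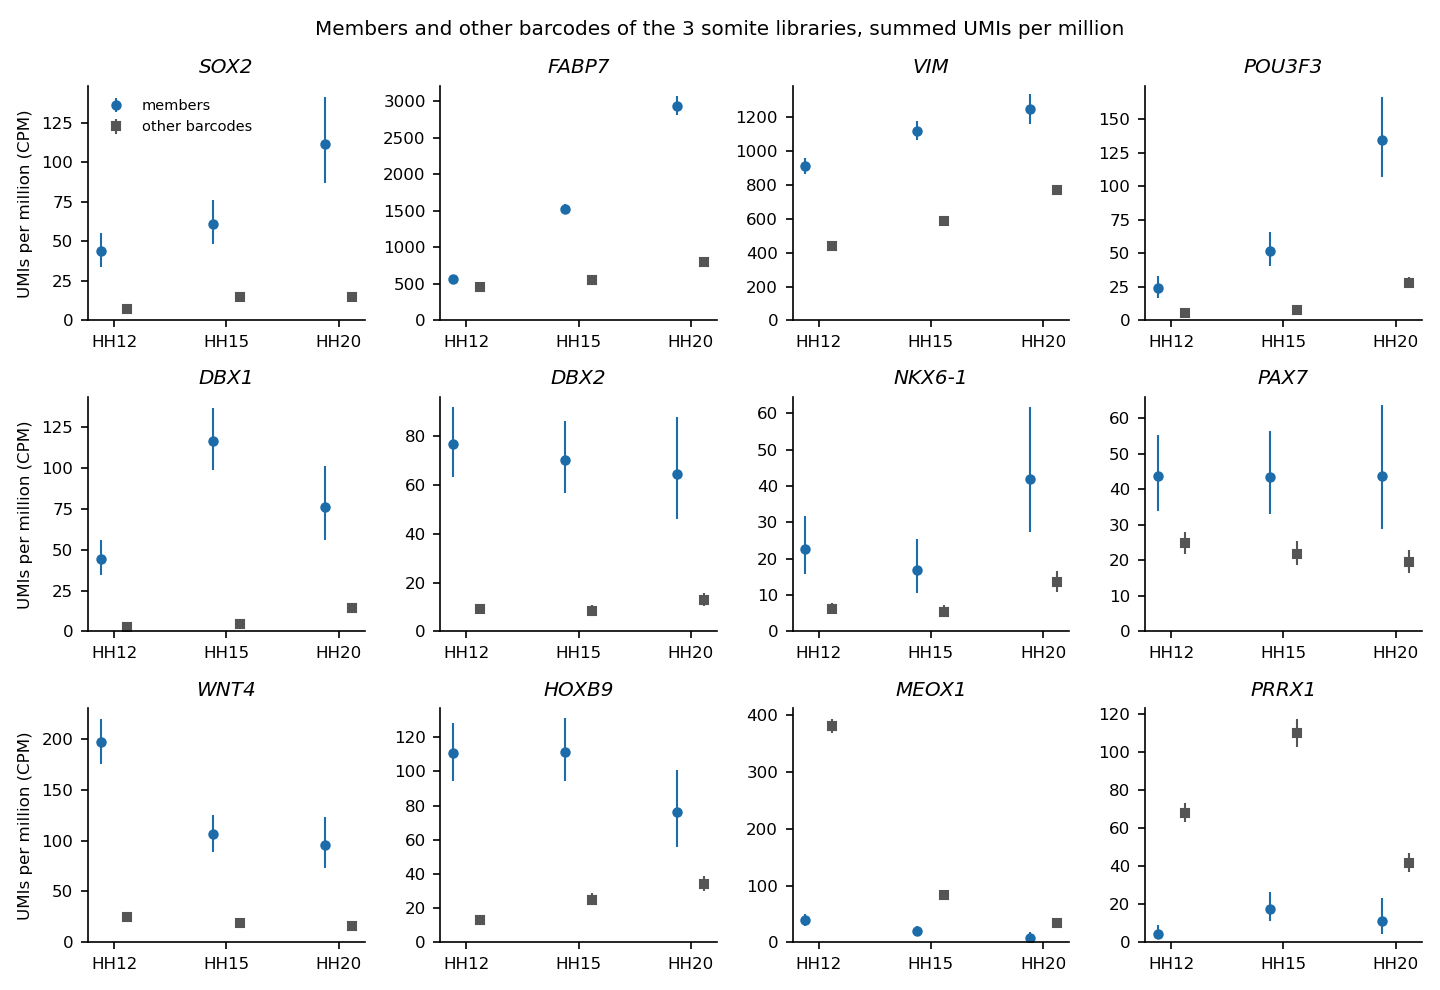
Level of 12 genes in CPM (linear axis) in the summed members (circles) and in all other barcodes (squares) of the somite libraries at HH12, HH15 and HH20, with exact 95% Poisson intervals that cover counting error only. SOX2 was higher in members at every stage (43.6, 61.1 and 112 CPM, against 6.99, 14.6 and 14.9 CPM), whereas the mesodermal gene MEOX1 was lower in members at every stage.

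Notch genes depended on stage. The receptor NOTCH1 was at 64.4, 36.7 and 251 CPM in members at HH12, HH15 and HH20, against 60.6, 34.7 and 62.8 CPM in the others. The groups were near each other at HH12 and HH15 and apart at HH20, and the call (0.79 ± 0.24, adjusted p = 0.027, edgeR's quasi-likelihood test) was lost without HH20, when the log2 fold change was 0.19. LFNG, which glycosylates Notch receptors, was at 64.4, 64.1 and 214 CPM in members, against 47.0, 64.1 and 62.3 CPM in the others, and its call (0.76, adjusted p = 0.0152, edgeR) was also lost without HH20 (0.33). Of 3 Notch ligands tested, JAG2 fell (-1.67) and DLL1 did not pass (0.52, adjusted p = 0.29, edgeR). Of 6 targets tested, HEYL, a target of vascular and mesenchymal tissue, fell (-0.99) and 0 rose.

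Of 22 HOX genes tested, 9 rose and 1 fell, with a median of 0.52. HOXB8 was at 240, 221 and 238 CPM in members, against 47.8, 68.7 and 81.3 CPM in the others (1.87 ± 0.16, adjusted p = 2.68e-06, edgeR's quasi-likelihood test). HOXB9 was at 111, 111 and 76.0 CPM in members, against 12.8, 25.1 and 34.2 CPM in the others (2.21 ± 0.27, adjusted p = 5.47e-05, edgeR), and here the gap narrowed with stage. HOXA7 had 189, 290 and 201 CPM in members, against 45.7, 223 and 180 CPM in the others (0.86, adjusted p = 0.0275, edgeR). CDX4, a caudal factor upstream of trunk HOX genes, was at 40.3, 4.58 and 0 CPM in members, against 10.0, 2.47 and 0 CPM in the others, and its call (1.85) rested on HH12, without which the log2 fold change was 1.0 and did not pass.

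Cell cycle genes were higher as a group. Of 23 S phase genes tested, 11 rose and 0 fell (median 0.36), and of 27 G2/M genes, 19 rose and 1, ANLN, fell (median 0.47). PCNA, the sliding clamp of DNA replication, was at 989, 1295 and 624 CPM in members, against 634, 793 and 418 CPM in the others (0.65). CDK1, the mitotic kinase, was at 539, 687 and 413 CPM in members, against 369, 400 and 226 CPM in the others (0.73). These calls moved with the mitochondrial class described below: PCNA had log2 fold changes of 0.29 among low-share and 0.33 among high-share barcodes, CDK1 had 0.25 and 0.45, and neither gene was called in both classes.

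Other genes with large increases were POU3F3, a POU domain factor of neural cells, at 24.1, 51.9 and 134 CPM in members, against 5.48, 7.53 and 28.2 CPM in the others (2.35 ± 0.19), and NDE1, a dynein regulator of dividing cells, at 208, 249 and 171 CPM in members, against 56.0, 66.2 and 50.7 CPM in the others (1.87 ± 0.12). The small heat shock protein gene CRYAB was at 83.9, 51.9 and 16.2 CPM in members, against 9.73, 11 and 12.8 CPM in the others (2.28 ± 0.34), with the groups close at HH20. PLPPR1, which encodes a phospholipid phosphatase-related membrane protein, had 56.6, 87.8 and 82.5 CPM in members, against 17.7, 20.4 and 31.6 CPM in the others (1.75).

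Several mesodermal genes were among the largest decreases. MEOX1, a somite homeobox factor, was at 39.0, 19.9 and 8.09 CPM in members, against 382, 83.7 and 34.9 CPM in the others (-2.74 ± 0.20, adjusted p = 9.05e-07, edgeR's quasi-likelihood test). PRRX1, a factor of lateral plate and limb mesenchyme, was at 4.55, 17.6 and 11.3 CPM in members, against 68.2, 110 and 41.8 CPM in the others (-2.84 ± 0.23). ALDH1A2, which makes retinoic acid in the mesoderm, was at 9.75, 20.6 and 17.8 CPM in members, against 180, 95.5 and 34.6 CPM in the others (-2.77 ± 0.31). APOA1 (-3.07), HAPLN1 (-2.88), COLEC12 (-2.59), RDH10 (-2.58), SHISA2 (-2.56), COL1A1 (-2.56) and ETS1 (-2.5) completed the 10 largest decreases among genes at 50 CPM or more in 1 of the groups. All 6 sclerotome markers tested and all 7 olfactory placode genes tested fell, with medians of -3.00 and -2.24. CYP26A1, which breaks down retinoic acid, rose (1.26), and this call was lost without HH15.

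The share of UMIs from mitochondrial genes divided the barcodes, and members were not spread like the others. Under 2% mitochondrial UMIs were found in 190 of 349 members at HH12, 290 of 422 at HH15 and 70 of 164 at HH20 (54.4%, 68.7% and 42.7%), against 22.5%, 37.5% and 22.8% of the other barcodes. The cut at 2% was set after the values were seen, and 7, 27 and 22 members lay between 1.5% and 2.5%. Of the genes called higher in members that could be tested between the classes, 786 were also higher in low-share members, 54 were lower and 151 were not called. For genes called lower in members, 27 were higher in low-share members, 374 were lower and 124 were not called. Over all genes tested between the classes, 41.5% were higher and 20.8% lower in low-share members.

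**Figure D2:**
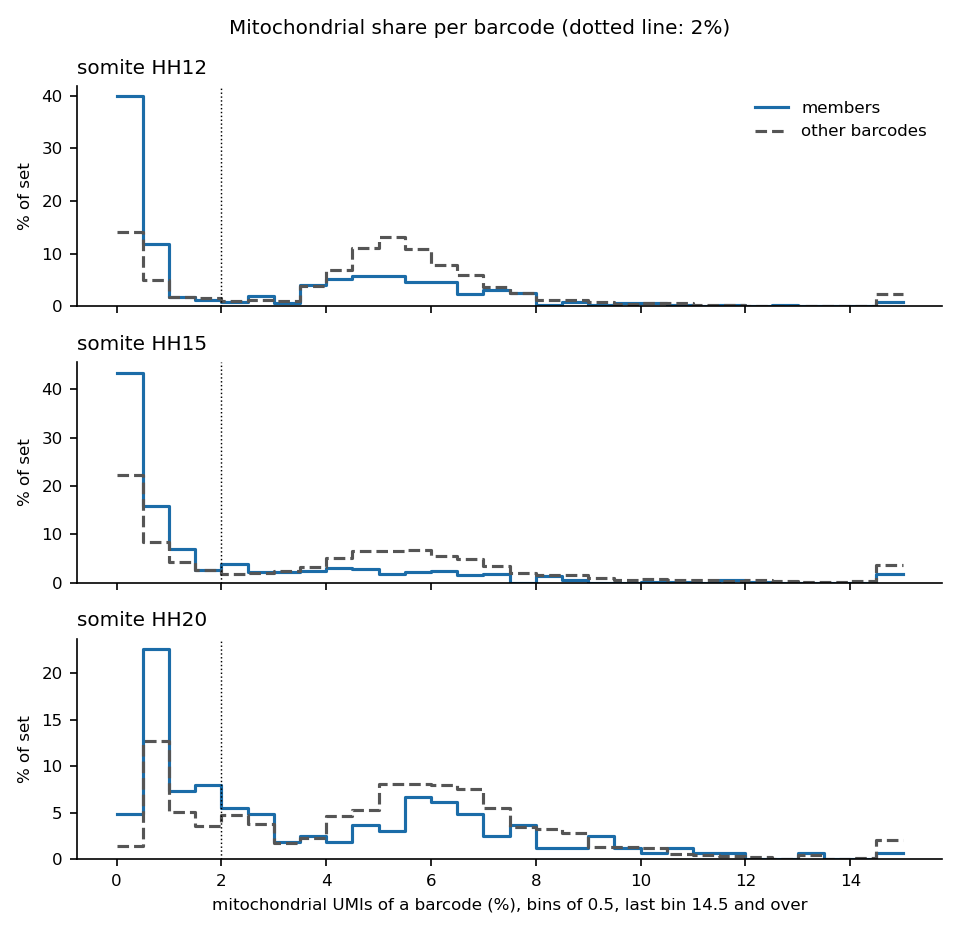
Percent of barcodes (y axis) by mitochondrial share of their UMIs (x axis, bins of 0.5 percentage points) for members (solid) and all other barcodes (dashed) at HH12, HH15 and HH20, with the 2% cut dotted. Members under the cut made up 54.4%, 68.7% and 42.7% of the set, against 22.5%, 37.5% and 22.8% of the others.

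Between low-share and high-share members of the same library, edgeR's quasi-likelihood test, blocked by library, called 2658 of 4266 genes (62.3%), with 1769 (41.5%) higher and 889 (20.8%) lower in low-share members and a median log2 fold change of 0.43, which was 0.27 with DESeq2's size factors. UBE2S, a ubiquitin enzyme of mitotic exit, was at 132, 93.5 and 168 CPM in low-share members, against 20.3, 16.3 and 56.1 CPM in high-share members (2.48 ± 0.30, adjusted p = 2.95e-14, edgeR). FABP7 was at 768, 1721 and 4617 CPM in low-share members, against 293, 1015 and 1708 CPM in high-share members (1.48 ± 0.16), and DBX1 was at 56.9, 143 and 95.6 CPM in low-share members, against 26.5, 48.8 and 61.7 CPM in high-share members (1.45 ± 0.29). SOX2 ran the other way, at 21.2, 49.9 and 61.2 CPM in low-share members, against 74.9, 89.5 and 149 CPM in high-share members (-0.97).

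Several receptor and ligand transcripts were lower in low-share members. NOTCH1 stood at 26.8, 14.9 and 87.9 CPM in low-share members, against 117, 92.2 and 370 CPM in high-share members (-1.97), and WNT4 at 54.6, 39.3 and 22.9 CPM, against 395, 277 and 149 CPM (-2.44 ± 0.25, adjusted p = 5.19e-19, edgeR's quasi-likelihood test). IGDCC3, an immunoglobulin family membrane protein, was at 29.0, 47.8 and 95.6 CPM in low-share members, against 329, 431 and 435 CPM in high-share members (-2.67 ± 0.23). HES6, a neurogenic HES family member, was at 3.34, 5.31 and 7.64 CPM in low-share members, against 34.3, 59.7 and 75.7 CPM in high-share members (-3.01 ± 0.47). The chromatin remodelling ATPase gene SMARCA4 had the largest decrease of the genes past 50 CPM, at 2.23, 3.19 and 15.3 CPM in low-share members, against 60.8, 84.1 and 56.1 CPM in high-share members (-3.51 ± 0.46).

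All 4 FGF pathway genes tested fell in low-share members (median -2.03), as did 5 of 6 hedgehog genes, 5 of 7 WNT genes and all 3 ventral factors tested (median -1.68), OLIG2 among them (-2.79). Over all genes of this comparison 41.5% rose and 20.8% fell (median 0.43). Of 20 S phase genes, 11 rose and 1 fell (median 0.86). Of 26 G2/M genes, 13 rose and 5 fell (median 0.62), so that the G2/M counts lay near the shares of all genes. Of the rule genes, given as a description, FAM181A was at 109, 172 and 115 CPM in low-share members and 105, 168 and 121 CPM in high-share members, and PAX6 at 308, 270 and 271 CPM in low-share members and 407, 309 and 182 CPM in high-share members. Depth differed less than the transcripts did, with medians of 4168, 2707.5 and 3050.5 UMIs in low-share members and 3465, 2422 and 2944 UMIs in high-share members. Surface ectoderm markers summed to 294, 116 and 26.8 CPM in low-share members, against 93.6, 81.4 and 8.42 CPM in high-share members, and their part in these differences was not tested.

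Within the classes, the differences between members and other barcodes mostly kept their direction. Of the called genes, 1856 could be tested in both classes. Of these, 1691 (91.1%) had the same direction in both as in the pooled fit, and 225 were called in both (93 higher and 132 lower). The genes were chosen by the pooled fit, which sums both classes, so agreement in direction was favoured in advance. SOX2 had log2 fold changes of 2.37 among low-share and 2.77 among high-share barcodes, DBX1 3.30 and 3.09, DBX2 2.5 and 3.15, and WNT4 2.20 and 3.30. FABP7 had 0.55 and 1.32, and was not called among low-share barcodes (adjusted p = 0.058, edgeR). PAX7 had 0.76 and 0.80 and was called in neither class. MEOX1 had -2.44 and -3.33.

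Progenitors were next set against the barcodes of the same libraries that carried CKB and at least 1 UMI of ELAVL4, STMN2, NEFM or NHLH1 without SOX10, here called neurons. There were 170, 135 and 472 of these at HH12, HH15 and HH20, which is 0.487, 0.320 and 2.88 neurons for each progenitor, and 0.262, 0.199 and 1.78 after thinning to 1500 UMIs. At HH20, 47 of the 472 neurons were globin-rich and held 34.0% of the UMIs of that set. Neurons were deeper, with medians of 5174.5, 2977 and 3388 UMIs, and still had mesodermal transcripts, since sclerotome markers summed to 56.6, 29.0 and 30.7 CPM in members, against 276, 63.4 and 53.9 CPM in neurons.

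Blocked by library, edgeR's quasi-likelihood test called 305 of 6340 genes (4.81%) between progenitors and neurons, 162 (2.56%) higher and 143 (2.26%) lower in progenitors. Without HH15 it called 102. The neuronal genes of the rule divided these sets, and only progenitors needed PAX6, HES5 or FAM181A. These calls therefore describe what goes with the gates. DBX2 was at 76.7, 70.2 and 64.7 CPM in progenitors, against 13.7, 26.4 and 21.2 CPM in neurons (1.78 ± 0.22, adjusted p = 1.33e-12, edgeR). DBX1 was at 44.2, 117 and 76.0 CPM in progenitors, against 9.11, 24.6 and 30.2 CPM in neurons (1.74 ± 0.22). SOX2 was at 43.6, 61.1 and 112 CPM in progenitors, against 19.1, 45.8 and 24.1 CPM in neurons (1.34 ± 0.22, adjusted p = 1.09e-07, edgeR). The levels of all 3 genes were higher in progenitors at each stage.

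WNT4 was also higher in progenitors, at 196, 106 and 95.5 CPM, against 83.8, 58.1 and 24.9 CPM in neurons (1.33 ± 0.18), and so was NDE1, at 208, 249 and 171 CPM in progenitors, against 116, 82.7 and 66.9 CPM in neurons (1.21 ± 0.15). The Notch pathway ubiquitin ligase gene DTX4 was at 165, 162 and 262 CPM in progenitors, against 82.0, 125 and 106 CPM in neurons (0.90). Of 26 G2/M genes tested, 12 rose and 0 fell (median 0.47), and of 22 S phase genes 4 rose and 0 fell (median 0.33, against 0.05 over all genes). HOXB8 was at 240, 221 and 238 CPM in progenitors, against 128, 128 and 122 CPM in neurons (0.87 ± 0.14, adjusted p = 1.4e-07, edgeR's quasi-likelihood test), and 5 of 19 HOX genes rose with 0 falling.

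Other differences were not firm. POU3F3 was called higher in progenitors (0.87, adjusted p = 0.00243, edgeR), but its log2 fold change was -0.083 after thinning to equal depth. NOTCH1 was called at 0.58 (adjusted p = 0.0309, edgeR), with -0.068 without HH20 and 0.54 without globin-rich barcodes, neither of which passed. FABP7 was at 570, 1523 and 2940 CPM in progenitors, against 649, 905 and 1288 CPM in neurons (0.58, adjusted p = 0.000983, edgeR), so that at HH12 it was not the higher of the pair, and its call was lost without HH15 (0.41).

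Of the 5 proneural and early neuronal genes tested, TAGLN3, GADD45G, BTG2 and EBF3 fell in progenitors and DCX did not pass, with a median of -2.14. Lower levels of such genes in progenitors go with a gate on neuronal genes. TAGLN3, a neuron-specific calponin family gene, was at 13.7, 45.8 and 64.7 CPM in progenitors, against 124, 271 and 319 CPM in neurons (-2.63 ± 0.17, adjusted p = 6.17e-49, edgeR's quasi-likelihood test). GADD45G, which marks cells leaving the cycle, was at 3.25, 10.7 and 16.2 CPM in progenitors, against 33.7, 44.0 and 61.2 CPM in neurons (-2.34 ± 0.29). The neuronal tubulin gene TUBB3 was at 144, 139 and 303 CPM in progenitors, against 223, 276 and 556 CPM in neurons (-0.86 ± 0.13). CRABP-I, a cellular retinoic acid binding protein gene, was at 186, 487 and 453 CPM in progenitors, against 423, 1214 and 1178 CPM in neurons (-1.31). Of 7 genes of differentiating neurons tested, 0 rose and 2 fell, with a median of -0.10 against 0.05 over all genes. The adhesion gene ALCAM (-3.11) and the axonal genes GAP43 (-2.33) and MAP2 (-1.48) were lower in progenitors as well. Mesodermal genes also fell, among them PRRX1 (-2.37), ALDH1A2 (-2.09) and SHISA2 (-1.74), beside the sclerotome sums given above. Surface ectoderm markers fell as well, 2 of 3 tested with 0 rising (median -1.40). KRT18 (-1.40) is one of these markers. The keratin genes KRT7 (-1.68) and KRT19 (-1.21), which are not in that list, were lower in progenitors too. The set called neurons thus also carried epithelial transcripts. Of the called genes, 207 could be tested in both mitochondrial classes, 202 kept their direction in both, and 30 were called in both (10 higher and 20 lower). Choice by the pooled fit favoured agreement in direction here too.

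Each stage was 1 library, so the change of progenitors from HH12 to HH20 has no test. Ratios are given with exact 95% Poisson intervals that cover counting error only. Of 2526 genes with 50 CPM or more in members at HH12 or HH20, 104 (4.12%) were at least 2-fold higher and 188 (7.44%) at least 2-fold lower at HH20, and the median ratio was 0.853 in members and 0.737 in the other barcodes. Without globin-rich barcodes 161 genes were higher and 124 lower, and the median ratio was 0.959 in members and 0.914 in the others. The steepest monotone increases by ratio were mostly globins and other red cell genes, with HBA1 at 1.95, 940 and 10705 CPM, and at HH20 the 5 globin-rich members supplied 89.9% of the globin UMIs.

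Genes of radial glia and Notch signalling stood higher at HH20. SOX9, which acts in the switch of neural progenitors towards glia, was at 15.0, 29.0 and 147 CPM in members at HH12, HH15 and HH20. That is 9.85 times the HH12 level at HH20 (6.18 to 16.3), or 11.4 times without globin-rich barcodes. Among members of low and of high mitochondrial share the ratios were 4.57 and 12.3. The other barcodes had SOX9 at 79.2, 64.1 and 95.2 CPM (1.20 times, or 1.61 times without globin-rich barcodes). These levels lay above the members at HH12 and HH15 and below them at HH20. FABP7 was at 570, 1523 and 2940 CPM, 5.16 times the HH12 level (4.75 to 5.59), against 1.74 times in the others. SDC3, a neural heparan sulfate proteoglycan, was at 15.6, 32.8 and 150 CPM (9.64 times, 6.10 to 15.8), against 1.72 times in the others.

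NOTCH1, FGFR3 and LFNG shared a different course, with no rise at HH15 and a high level at HH20. NOTCH1 was at 64.4, 36.7 and 251 CPM (3.90 times, 3.01 to 5.07), FGFR3, a receptor of ventricular zone progenitors, at 89.7, 55.0 and 317 CPM (3.53 times, 2.83 to 4.43), and LFNG at 64.4, 64.1 and 214 CPM (3.32 times, 2.54 to 4.35). In the other barcodes the ratios were 1.04, 0.534 and 1.32. Within members of low and of high mitochondrial share, the ratios were 3.29 and 3.16 for NOTCH1, 7.22 and 2.36 for FGFR3, and 6.12 and 2.26 for LFNG, so that direction did not depend on the class. SOX2 was at 43.6, 61.1 and 112 CPM, 2.56 times the HH12 level (1.80 to 3.64), and the other barcodes rose 2.14 times. Without globin-rich barcodes SOX2 rose 2.96 times in members and 2.91 times in the others.

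The rule genes took separate courses, given as a description. The PAX6 ratio at HH20 over HH12 was 0.630 (0.518 to 0.762), that of HES5 was 2.15 (1.73 to 2.67) and that of FAM181A was 1.10 (0.824 to 1.46). Among patterning factors, PAX7 had a ratio of 1.0 (0.617 to 1.59), DBX2 0.843 (0.574 to 1.22) and NKX6-1 1.85 (1.07 to 3.16). The early neuronal gene TAGLN3 was at 13.7, 45.8 and 64.7 CPM (4.74 times, 2.73 to 8.46), with 6.15 times in the others.

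The steepest decreases at HH20 included genes shared with the other barcodes and genes that were not. LIN28A, an RNA-binding protein that blocks let-7 maturation, was at 352, 166 and 14.6 CPM in members (ratio 0.0414, 0.0188 to 0.0792), and PRTG, the receptor protogenin of early neural and mesodermal tissue, at 750, 350 and 95.5 CPM (0.127, 0.0962 to 0.165). In the other barcodes the ratios were 0.0498 for LIN28A and 0.0751 for PRTG, so that these decreases were shared. FABP5, a fatty acid binding protein like FABP7, was at 224, 71.8 and 27.5 CPM in members (0.123, 0.0706 to 0.199), with 0.628 in the others. PLEK2 (0.0617), TNNC1 (0.0708) and TOP1MT (0.163) were lower in members by more than in the others (0.181, 0.214 and 0.675). KRT18 was at 144, 43.5 and 1.62 CPM and KRT19 at 70.2, 45.8 and 3.24 CPM. Both are keratins of simple epithelia such as surface ectoderm. The surface ectoderm sum in members had the same order of stages, but it includes KRT18, so that likeness was partly built in.

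**Figure D3:**
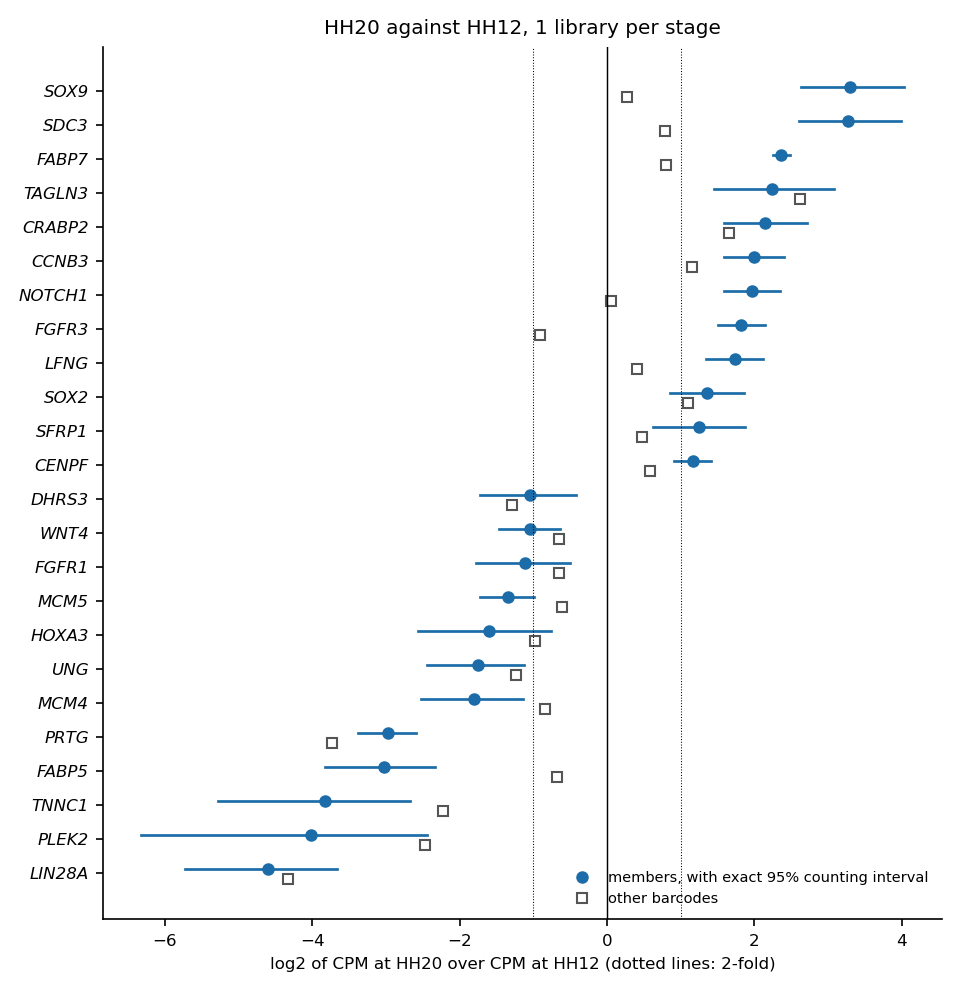
Ratio of HH20 to HH12 (log2 axis) for 24 genes in summed members, filled points with exact 95% intervals for counting error, and in all other barcodes (open squares). Dotted lines mark 2-fold changes. SOX9 and SDC3 had ratios of 9.85 and 9.64 in members, with 1.20 and 1.72 in the others, and LIN28A was low in both.

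HOX genes moved in both directions. Of 12 HOX genes at 50 CPM or more, 2 were at least 2-fold higher and 1 lower in members, with a median ratio of 0.941, against 1.94 in the other barcodes. Without globin-rich barcodes 3 were higher and 1 lower, with medians of 1.09 in members and 2.60 in the others. HOXB6 was at 48.8, 134 and 146 CPM in members (2.99 times, with 4.70 in the others), and HOXA6 at 34.5, 118 and 92.2 CPM (2.68 times, with 5.09). HOXA3 was at 63.7, 34.4 and 21.0 CPM in members (0.330), and HOXB8 was level (0.991, against 1.70 in the others). The posterior HOXC9 was at 1.3, 22.9 and 38.8 CPM and HOXA9 at 0.650, 20.6 and 34.0 CPM, both below 50 CPM at every stage.

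The cell cycle lists diverged. Of 18 S phase genes at 50 CPM or more, 5 were at least 2-fold lower at HH20 and 0 higher, with a median ratio of 0.570 in members and 0.611 in the others. MCM4, part of the replicative helicase, was at 118, 70.2 and 34.0 CPM (0.287, 0.174 to 0.452), and UNG, a DNA glycosylase, at 125, 103 and 37.2 CPM (0.297, 0.184 to 0.458). Of 23 G2/M genes, 2 were at least 2-fold higher and 0 lower, with a median of 1.14 in members and 0.770 in the others. They were CCNB3, a mitotic cyclin, at 53.3, 61.8 and 212 CPM (3.98 times, 2.99 to 5.30), and CENPF, a kinetochore protein, at 182, 183 and 408 CPM (2.24 times, 1.88 to 2.66). Without globin-rich barcodes, 3 of 18 S phase genes were 2-fold lower (median 0.612) and 3 of 24 G2/M genes higher (median 1.28). The other barcodes then had medians of 0.773 for S phase and 0.989 for G2/M.

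The same rule in the nasal libraries took 281, 461 and 67 barcodes at HH15, HH18 and HH22 (9.94%, 9.68% and 4.72%), and FAM181A was detected in 15.2% of them. PAX6 alone brought in 51.5% of them, and KRT18 stood at 108, 86.9 and 37.9 CPM on that route at HH15, HH18 and HH22. With HES5 alone KRT18 stood at 7.10, 8.16 and 0 CPM. Trunk members that entered by PAX6 alone had KRT18 at 291, 37.0 and 0 CPM at HH12, HH15 and HH20. Those that entered by HES5 alone had it at 64.7, 79.7 and 0 CPM. KRT18 on the PAX6 route was thus not particular to the nasal set. The nasal barcodes are called progenitors by the rule only, and whether all of them were neural was not tested. The question was what separates trunk members from nasal barcodes picked by identical genes. Only HH15 is common to both locations, so location and stage cannot be fully told apart, and libraries were not paired. edgeR's quasi-likelihood test called 112 of 6430 genes (1.74%), 73 (1.14%) higher and 39 (0.607%) lower in trunk progenitors, and 458 genes (7.12%) were higher and 345 (5.37%) lower with no overlap between the libraries. In simulated data of this design the test found 9.0% of genes changed 2-fold and 73.0% of those changed 4-fold, so smaller differences would mostly be missed.

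HOX transcripts were at or near 0 in the nasal set. All 14 HOX genes tested were higher in the trunk. With nasal counts at or near 0, they passed the low-count filter through the trunk set only. The direction of this count was therefore fixed in advance. HOXB8 was at 240, 221 and 238 CPM in trunk progenitors, 806 UMIs in all, against 0 UMIs of 3499980 in nasal progenitors, which makes it at least 271-fold higher with a floor of 3 counts over the nasal set. By the same floor HOXA7 was 267-fold higher (794 UMIs against 0, lower limit 217). HOXB7 was 206-fold higher (611 against 0, lower limit 167) and HOXD4 142-fold (422 against 0, lower limit 115). HOXB9 had 363 UMIs in the trunk and 1 in the nasal set, a ratio of 367 (65.4 to 14519).

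Trunk progenitors were also higher in patterning factors of the spinal cord. NKX6-1 was at 22.8, 16.8 and 42.1 CPM in trunk progenitors, against 0.731, 0 and 0 CPM in nasal progenitors. NKX6-2 had 74 UMIs against 0, 24.9-fold higher with the floor of 3 counts (exact 95% lower limit 19.8). WNT4 was at 196, 106 and 95.5 CPM in trunk progenitors, against 13.9, 3.27 and 0 CPM in nasal progenitors (4.20 ± 0.57, adjusted p = 0.00213, edgeR's quasi-likelihood test). DBX2 was at 76.7, 70.2 and 64.7 CPM in trunk progenitors, against 8.04, 5.99 and 6.75 CPM in nasal progenitors (3.33 ± 0.33, adjusted p = 0.00034, edgeR). DBX1 (2.20, adjusted p = 0.0302), PAX7 (2.32, adjusted p = 0.0161) and IRX3 (3.84, adjusted p = 0.0199, all edgeR) were called too. The call of DBX1 was lost without trunk HH15 or nasal HH18, that of PAX7 without nasal HH18 and that of IRX3 without trunk HH12.

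Of 8 retinoid genes tested, 2 were higher in the trunk and 0 lower (median 1.84), and of 4 BMP and ID genes, 1 was higher and 0 lower (median 0.0085). RARB, a retinoic acid receptor and target, was at 35.1, 28.3 and 29.1 CPM in trunk progenitors, against 5.85, 4.36 and 10.1 CPM in nasal progenitors (2.43, adjusted p = 0.0035, edgeR's quasi-likelihood test), a call lost without nasal HH18 (2.11). DHRS3, a retinaldehyde reductase, was at 83.2, 51.2 and 40.4 CPM in trunk progenitors, against 9.50, 7.63 and 3.38 CPM in nasal progenitors (2.89). ID1, a BMP-induced inhibitor of helix-loop-helix factors, was at 163, 76.4 and 129 CPM in trunk progenitors, against 12.4, 12.5 and 16.9 CPM in nasal progenitors (3.20, adjusted p = 0.000766, edgeR). FZD10 (3.25) and the adhesion gene NCAM1 (2.62) were higher in the trunk as well.

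Forebrain factors were lower in the trunk. DMRTA2, a factor of the dorsal telencephalon, was at 0.650, 0 and 1.62 CPM in trunk progenitors, against 33.6, 84.4 and 240 CPM in nasal progenitors (-7.26). SIX3, the anterior neural plate factor, had 1 UMI in trunk progenitors, against 87 in nasal progenitors. NKX2-1, of the ventral forebrain, was at 1.3, 1.53 and 0 CPM in trunk progenitors, against 19.7, 19.1 and 37.1 CPM in nasal progenitors (-4.18, adjusted p = 0.00213, edgeR's quasi-likelihood test). Of 8 forebrain genes tested, 4 fell and 0 rose (median -3.51, against 0.02 over all genes). Genes such as SIX3 and DMRTA2 passed the low-count filter through the nasal set only, which favoured this direction. The sensory organ homeobox gene SOHO-1 had 0 UMIs of 3465775 in trunk progenitors, against 265 in nasal progenitors, so that it was at least 87.5-fold lower with the floor of 3 counts.

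General progenitor genes did not pass between locations. SOX2 was at 43.6, 61.1 and 112 CPM in trunk progenitors, against 61.4, 72.5 and 118 CPM in nasal progenitors (-0.18), and FABP7 at 570, 1523 and 2940 CPM in trunk progenitors, against 2152, 1905 and 1735 CPM in nasal progenitors (-0.20). POU3F3 was at 24.1, 51.9 and 134 CPM in trunk progenitors, against 24.9, 57.2 and 176 CPM in nasal progenitors (-0.14). Of 22 S phase and 26 G2/M genes tested, 0 were called, which at this power does not show that they were alike. FABP7 spread more widely over the trunk stages than over the nasal stages, and the groups overlapped for all 3 genes. Of the called genes, 53 could be tested in both mitochondrial classes, all 53 kept their direction, and 32 were called in both. Agreement in direction was again favoured by choosing the genes in the pooled fit.

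**Figure D4:**
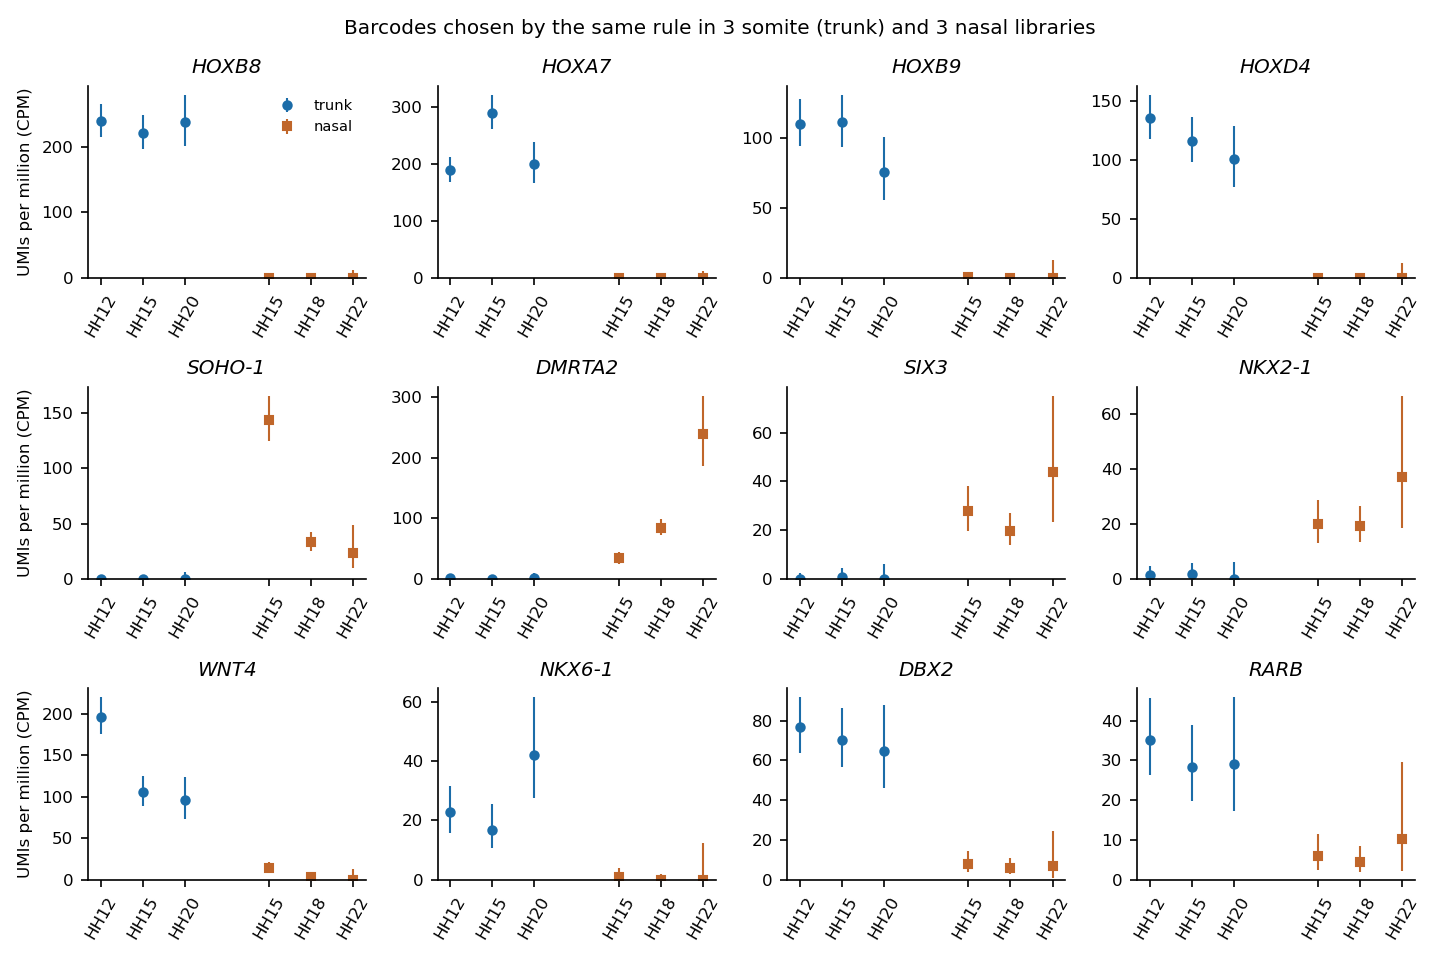
Level of 12 genes in CPM in members from trunk libraries (left) and barcodes taken by the same rule from nasal libraries (right), 1 point for each library with its exact 95% Poisson interval. HOX genes were at 0 CPM or near it in nasal libraries, SOHO-1 was at 0 CPM in all trunk libraries, and WNT4, NKX6-1, DBX2 and RARB did not overlap between locations.

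Members were finally divided by dorsoventral factors. Dorsal members had a UMI of PAX7, MSX1 or MSX2 and none of the ventral factors NKX6-1, NKX6-2, OLIG2, NKX2-2, FOXA2 and SHH, and ventral members the reverse. Dorsal members numbered 76, 68 and 28 at HH12, HH15 and HH20 (21.8%, 16.1% and 17.1%) and ventral members 59, 49 and 29 (16.9%, 11.6% and 17.7%). Both kinds of factor were found in 3, 0 and 4 members, and neither in 211, 305 and 103 (60.5%, 72.3% and 62.8%), so that most members could not be placed. After thinning, the dorsal shares were 10.9%, 9.36% and 12.3% and the ventral shares 10.9%, 7.49% and 13.1%.

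The same blocked test called 8 of 2469 genes (0.324%) between dorsal and ventral members, 3 (0.122%) higher and 5 (0.203%) lower in dorsal members. FKBP11, an endoplasmic reticulum prolyl isomerase gene, was at 301, 219 and 115 CPM in dorsal members, against 107, 34.4 and 20.4 CPM in ventral members (1.85 ± 0.26, adjusted p = 0.021, edgeR). MDK, the heparin-binding growth factor midkine, was at 496, 393 and 355 CPM in dorsal members, against 267, 89.3 and 122 CPM in ventral members (1.31 ± 0.22, adjusted p = 0.0427, edgeR). KRT18 was at 379, 59.3 and 0 CPM in dorsal members, against 55.6, 27.5 and 0 CPM in ventral members (2.52 ± 0.33). KRT18 is a surface ectoderm keratin, and the sum of surface ectoderm markers was 470, 137 and 9.6 CPM in dorsal members, against 111, 68.7 and 10.2 CPM in ventral members. This sum includes KRT18 itself, so that likeness was partly built in. At HH12, KRT18 made up 379 of the 470 CPM in dorsal members and 55.6 of the 111 CPM in ventral members. EPCAM, the other marker of the sum that was tested, did not pass (log2 fold change 0.47, adjusted p = 0.655, edgeR's quasi-likelihood test). The part of surface ectoderm in the KRT18 difference was not tested.

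Ventral members carried more ID1, VTN, RGMA, ANXA5 and ACKR3. ID1 was at 88.3, 48.2 and 144 CPM in dorsal members, against 326, 261 and 316 CPM in ventral members (-1.82 ± 0.23, adjusted p = 0.021, edgeR's quasi-likelihood test). RGMA, a membrane-bound guidance molecule and BMP co-receptor, was at 104, 100.1 and 154 CPM in dorsal members, against 278, 309 and 337 CPM in ventral members (-1.39 ± 0.19, adjusted p = 0.021, edgeR). The matrix protein gene VTN was at 51.9, 44.5 and 28.8 CPM in dorsal members, against 207, 117 and 112 CPM in ventral members (-1.76 ± 0.28). ANXA5, which binds phosphatidylserine, was at 77.9, 133 and 115 CPM in dorsal members, against 182, 385 and 224 CPM in ventral members (-1.28 ± 0.20), and the chemokine scavenger receptor gene ACKR3 was at 18.2, 14.8 and 0 CPM in dorsal members, against 66.7, 192 and 122 CPM in ventral members (-2.95 ± 0.49). For each of these 5 genes every dorsal value lay below every ventral value.

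The number of calls was small and moved with the libraries used: 4 genes were called without HH12, 13 without HH15 and 0 without HH20, where 296 genes had an unadjusted p under 0.05 in edgeR's quasi-likelihood test. Mitochondrial class also moved with the split, since 50%, 66.2% and 25% of dorsal members were under 2%, against 40.7%, 36.7% and 27.6% of ventral members. Of the 8 genes, 5 could be tested in both classes, and all 5 kept their direction, with FKBP11, MDK and ANXA5 called in both. The fit under 2% left out HH20, where 7 dorsal and 8 ventral members fell short of the minimum of 10. Their choice by the pooled fit favoured agreement in direction. ID3, another ID family gene, ran opposite to ID1 and did not pass, at 319, 322 and 230 CPM in dorsal members, against 170, 68.7 and 61.2 CPM in ventral members (1.41, adjusted p = 0.062, edgeR). WNT4 did not pass either, at 234, 259 and 240 CPM in dorsal members, against 170, 82.5 and 20.4 CPM in ventral members (1.13, adjusted p = 0.255, edgeR). HOXB8 had a log2 fold change of 0.06.

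**Figure D5:**
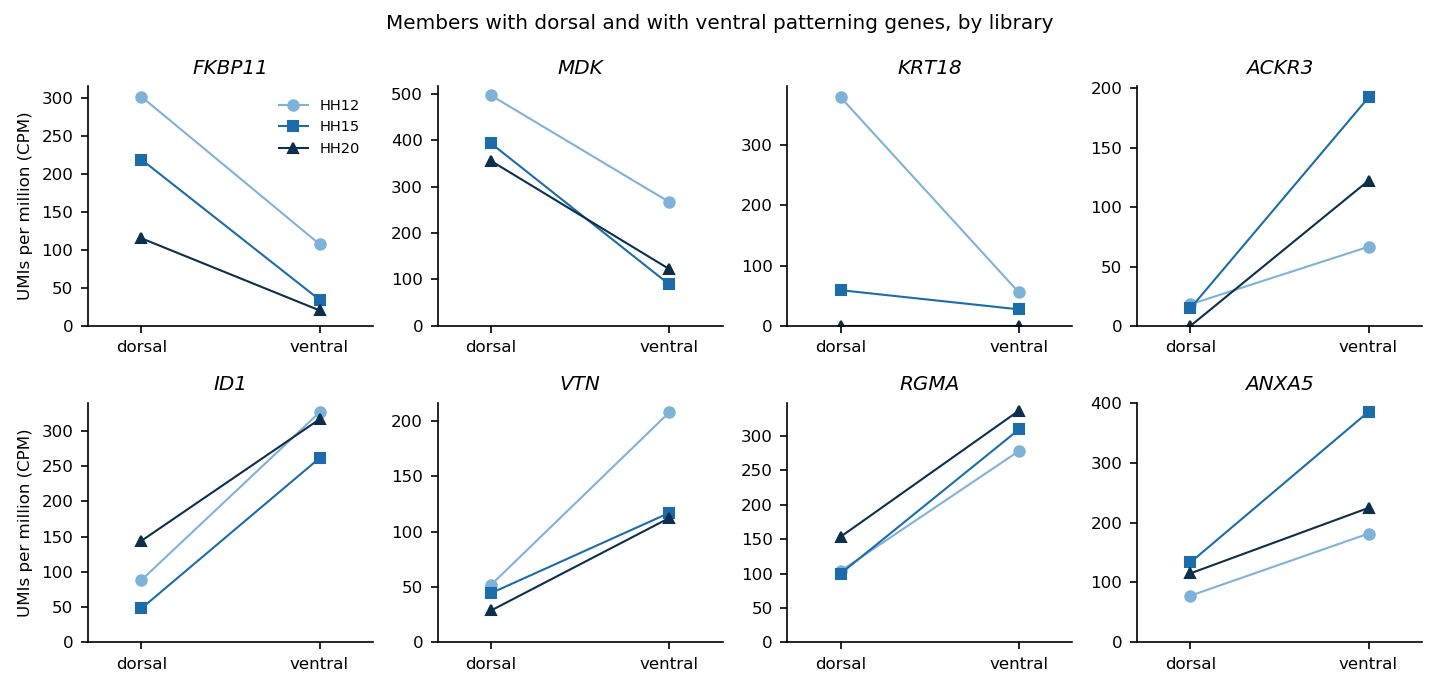
Level of the 8 genes called between dorsal members (left) and ventral members (right) in CPM, with 1 line for each library of HH12, HH15 and HH20. FKBP11, MDK and KRT18 were higher in dorsal members, with KRT18 at 0 CPM in both at HH20, and ACKR3, ID1, VTN, RGMA and ANXA5 were lower in dorsal members in each library.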

How the data were processed

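The authors deposited, for each library, UMI counts of 16828 gene rows for each cell barcode, not normalized. They had counted with Cell Ranger, using GRCg6a and an annotation whose 3' ends they had extended. Libraries held 7702531 to 16725073 UMIs, and rare genes are limited by these counts. Of the rows, 4317 have an identifier only, and 63 rows share a symbol with another row and were kept apart. No row was without a gene.

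Groups came from the tissue and stage labels. The members, the gene lists and the comparisons were chosen with earlier results of these data known. All barcodes were used, and doublets were left in. An alternative applied the study's filters and removed the highest Scrublet scores (scanpy 1.11.5) at 0.008 for each 1000 barcodes, which left 335, 405 and 159 members.

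UMI counts were summed per library and set, and tested in edgeR 4.0.16 under R 4.3.3 by its quasi-likelihood method, after TMM scaling and its default filter on low counts. Sets of the somite libraries had the library as a block. P-values were adjusted by Benjamini and Hochberg's method across every gene tested, with a threshold of 0.05. The 9 rule genes were left out of the tests. Paired sums come from the same library, and their deviations from group means correlated at 0.334 to 0.661. Trunk and nasal sets had no block. In simulated sums of the members and the other barcodes, with known changes in seeded genes, the test recovered 63.0% of 2-fold and 89.0% of 4-fold changes, with 13 false calls. Folds against 0 used a floor of 3 counts.

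Genes named were those of the lists and, per comparison and direction, the 10 called genes with the largest change among those at 50 CPM or more in 1 group that moved the same way in every library, or, for stages, the 10 steepest monotone courses. Identifier-only and mitochondrial genes were left out. Alternatives were DESeq2 1.42.0, edgeR with DESeq2 size factors, no filter, no block, each library left out, thinning to 1500 UMIs, filtered barcodes, CKB at 2 UMIs, 2 of the 3 genes, and HES5 not used. The mitochondrial classes, the comparison between them, the set without globin-rich barcodes and the set of other barcodes without CKB were added after the data were seen. Limb libraries were not analysed here. Some genes of the lists are not reported here.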

Additional observations from a re-analysis of the deposited data

How the results depend on the processing

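Counts of genes called moved with the test more than the directions of named genes did. Members against other barcodes gave 1320 calls with DESeq2, 79 with no replicate block, 1273 after thinning, 1420 with 2 of the 3 genes, 710 and 418 at a mitochondrial share of 2% or more and under 2%, and 1095 to 3198 with each library left out. Progenitors against neurons gave 69 with DESeq2, 0 with no replicate block (296 at an unadjusted p under 0.05 in edgeR's quasi-likelihood test), 82 after thinning, 114 with 2 of the 3 genes, 82 and 73 in the mitochondrial classes, and 102 to 314 with each library left out. Trunk against nasal gave 418 with no filter, 34 after thinning, 43 with 2 of the 3 genes, and 66 (without nasal HH18) to 191 (without nasal HH22) with each library left out. Dorsal against ventral gave 1 with DESeq2, 65 with no filter, 0 with no replicate block (77 at an unadjusted p under 0.05 in edgeR), 5 after thinning, 26 under 2% mitochondrial share, and 0 to 13 with each library left out. Its fit under 2% mitochondrial share used HH12 and HH15 only. Low against high mitochondrial share gave 1688 with DESeq2 and 1398 to 3234 with each library left out. The cause of these shifts was not tested.

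The share of members was 9.21%, 4.01%, 9.65% and 6.33% at HH12 with CKB at 2 UMIs, with 2 of the 3 genes, without HES5 and after thinning, and 12%, 4.42%, 10.3% and 10.2% at HH15. At HH20 it was 3.04% with 2 of the 3 genes, 6.71% without HES5 and 6.92% after thinning. Among barcodes of 2% mitochondrial share or more it was 6.73%, 7.09% and 6.63% at HH12, HH15 and HH20, and under 2% it was 22.9%, 21.8% and 15.2%. Genes 2-fold higher at HH20 numbered 258 after thinning, 300 with 2 of the 3 genes, 158 under 2% mitochondrial share and 161 without globin-rich barcodes, and those 2-fold lower numbered 124 without globin-rich barcodes, 223 after thinning, 214 with 2 of the 3 genes, and 255 under and 256 at or over 2% mitochondrial share.

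Among named genes, POU3F3 (-0.083 after thinning) and NOTCH1 (-0.068 without HH20 to 0.88 without HH15) changed direction between progenitors and neurons. No paired analysis was possible between trunk and nasal libraries because they share only HH15. Genes under about 10 UMIs in a set, such as NKX2-2, and detection shares near those of mesodermal barcodes are limited by depth.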
